A study of Mus musculus with 5 samples.

Results

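The regions described here held a DNaseI hypersensitive site (DHS) in mesoderm (MES) and hemangioblast (HB) cells and none in the later stages of blood development. They were selected on the deposited DHS lists themselves: each site became a window of 500 bp centred on its middle, windows sharing at least 25% of their length were joined across stages, and joined regions with a window of MES and of HB but none of the later stages were kept. The rule found 3250 regions of 68846 in all (4.72%), and every one of them held 1 MES and 1 HB window. The presence or absence of a site in a stage, which chose these regions, is therefore a description and carries no test. The authors also mapped such sites in undifferentiated embryonic stem cells, but no list of that stage was used here. Whether these regions were already open in those cells was not examined.

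All 5 populations were sorted from cultures of differentiating embryonic stem (ES) cells, of strain 129, whose GFP reporter follows Brachyury, a gene switched on in the primitive streak. MES cells were Bry:GFP+ and Flk1-, and HB cells were Bry:GFP+ and Flk1+. Of the 3 later populations, hemogenic endothelium (HE) carried Tie2 and cKit but not CD41 and is labelled Bry:GFP+ too. CD41+ cells were the hematopoietic progenitors (HP), and their CD11b+ progeny the macrophages (MAC). Each stage has 1 list of sites, and the macrophage label names 2 replicates together, so no spread between replicates can be given and no comparison of stages has a p-value. Intervals below are 95% Wilson intervals for a share, or Newcombe intervals for a difference of shares, and cover counting error over regions only. The lists hold positions without read counts, so a region without a site in a stage is one that was not listed there, and its depth is unknown. The markers checked fitted the labels in part. A site lay within 1 kb of the transcription start site (TSS) of T in MES and HB alone and of Itgam, Csf1r and Adgre1 in MAC alone, while Gfi1b, a gene of blood progenitors, had such a site in MAC and not in HP. Tek and Cdh5 had one in HE alone, and Itga2b in HE and HP. Mixl1 and Eomes had one in MES, HB and HE, Kit in all stages but MAC, and Tal1 in all but MES. Kdr, Lmo2 and Runx1 had one in all 5 stages. None of the genes checked for HB (Kdr, Tal1 and Lmo2) set HB apart.

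In the gastrulating embryo, epiblast cells pass through the primitive streak under Nodal, Wnt, BMP and FGF signals and become mesoderm, and a Flk1+ fraction of it gives rise to endothelium and blood. The T-box factors Brachyury (T) and Eomes, and LEF/TCF factors that carry the Wnt signal, act on enhancers in these cells, while octamer-binding and ZIC factors are known from the epiblast. Enhancers that serve these steps are often closed when cells take on a blood or endothelial fate. DNaseI cuts DNA where nucleosomes are displaced, so that a DHS marks a promoter, an enhancer or an insulator without saying which.

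Sequences of the regions are shown first, since the letters they hold were not used by the rule. For each factor consensus that proved more frequent in these regions, up to 8 in all, the region printed is the one assigned to a gene of the lists below, over 2 kb from a TSS and outside exons, with the most matches. All are on the plus strand of GRCm38 (mm10), read from RefSeq GRCm38.p6, and capitals mark the matches on either strand to the consensus named. The T-box region, with a pair of matches, lies 30.9 kb upstream of Sp5, a Wnt target gene of the streak, and its TCF/LEF counterpart lies 8.82 kb upstream of the Wnt receptor gene Fzd2. The octamer region lies 67.5 kb upstream of Lhx1, a regulator of anterior mesendoderm, and the ZIC region lies 19.3 kb downstream of the Evx1 TSS, a gene of the posterior streak. The LHX letters read nearly the same on both strands, so its run of capitals counts as 2 overlapping matches. The SP and OTX regions, near Zic2 and Pparg, each overlapped the deposited interval of a later stage although no window of a later stage was joined to them.
T-box, near Sp5, chr2:70443905-70444150: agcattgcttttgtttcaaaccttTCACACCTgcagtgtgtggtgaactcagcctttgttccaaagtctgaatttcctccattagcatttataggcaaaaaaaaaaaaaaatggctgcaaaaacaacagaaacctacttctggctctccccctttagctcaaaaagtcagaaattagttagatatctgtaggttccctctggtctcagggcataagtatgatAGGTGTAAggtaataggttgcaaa
SP, 15.4 kb from Zic2, chr14:122490802-122490938: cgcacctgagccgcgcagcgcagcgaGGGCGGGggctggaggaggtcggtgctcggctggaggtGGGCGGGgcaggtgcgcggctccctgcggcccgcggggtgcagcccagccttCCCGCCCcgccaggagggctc
OTX, 59.0 kb from Pparg, chr6:115481068-115481229: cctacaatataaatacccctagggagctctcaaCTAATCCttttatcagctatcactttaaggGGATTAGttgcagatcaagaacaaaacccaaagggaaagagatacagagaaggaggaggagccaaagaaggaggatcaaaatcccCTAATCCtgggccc
CTCF, 94.5 kb from Foxd3, chr4:99561823-99561902: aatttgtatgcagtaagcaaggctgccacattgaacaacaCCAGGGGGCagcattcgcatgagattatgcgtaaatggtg
LHX, 41.5 kb from Klf5, chr14:99340003-99340082: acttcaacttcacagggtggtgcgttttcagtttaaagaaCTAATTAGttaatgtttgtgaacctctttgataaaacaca
TCF/LEF, near Fzd2, chr11:102595571-102595654: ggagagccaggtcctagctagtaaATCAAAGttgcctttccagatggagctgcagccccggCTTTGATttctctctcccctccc
octamer, near Lhx1, chr11:84592877-84592956: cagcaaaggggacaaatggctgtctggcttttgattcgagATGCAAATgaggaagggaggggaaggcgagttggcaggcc
ZIC, near Evx1, chr6:52332762-52332841: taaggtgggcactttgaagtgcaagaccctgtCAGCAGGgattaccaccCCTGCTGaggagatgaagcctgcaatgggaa

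A further 3 regions, chosen after their matches were seen, stand near genes that act in the streak. Capitals there mark every match to a consensus more frequent in the regions, and to the TEAD consensus. The Lefty1 region lies 10.1 kb upstream of the TSS of this Nodal antagonist, in an intron of the gene model Gm39715, and holds FOXH1 matches at bases 26 to 33 and 89 to 96 of the printed run and a T-box match at bases 123 to 130. FOXH1 is the DNA-binding partner of SMAD proteins in the Nodal response. The Fgf8 region, 7.57 kb downstream of the Fgf8 TSS and outside annotated genes, holds a TEAD match at bases 26 to 32, an octamer match at bases 176 to 183 and a T-box match at bases 204 to 211. The Eomes region, 9.29 kb downstream of the Eomes TSS in an intron of Gm33460, holds a T-box match at bases 26 to 33.
Lefty1, chr1:180924789-180924943: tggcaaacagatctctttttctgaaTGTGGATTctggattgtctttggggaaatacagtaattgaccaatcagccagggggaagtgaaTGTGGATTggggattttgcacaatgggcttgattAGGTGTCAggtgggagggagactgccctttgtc
Fgf8, chr19:45735194-45735429: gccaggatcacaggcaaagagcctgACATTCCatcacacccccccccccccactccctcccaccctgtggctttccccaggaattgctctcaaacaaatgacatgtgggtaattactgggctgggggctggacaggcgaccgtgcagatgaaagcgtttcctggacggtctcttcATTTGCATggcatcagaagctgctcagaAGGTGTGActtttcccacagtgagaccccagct
Eomes, chr9:118487636-118487693: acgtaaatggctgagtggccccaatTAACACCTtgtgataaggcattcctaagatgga

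Of the 17886 regions with sites in both MES and HB, 9067 (50.7%) held sites in all 5 stages, and the 3250 regions that were listed in no later stage (18.2%) were the next most frequent pattern. A further 1842 also held an HE site alone and 1601 held HE and HP sites. The 3250 regions made up 14.8% of the regions with an MES site and 13.1% of those with an HB site.

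**Figure D1:**
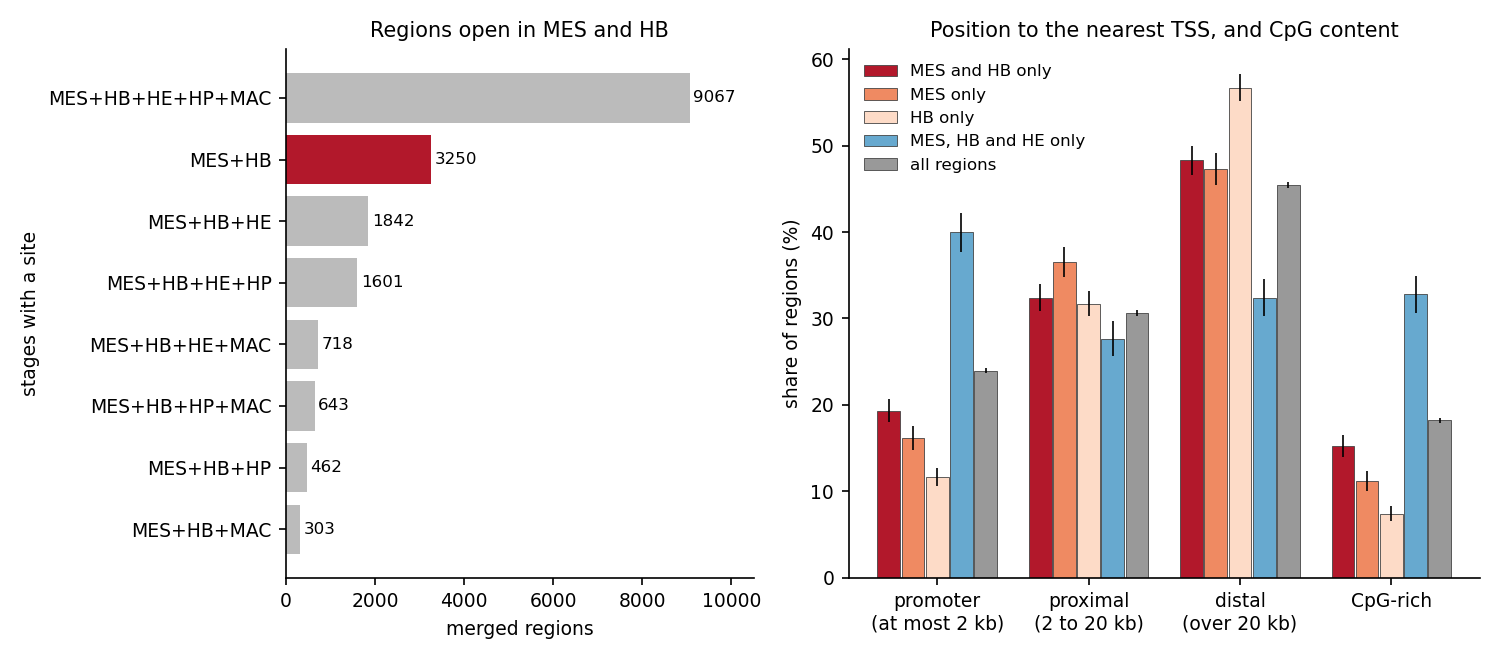
Left, number of merged regions with sites in MES and HB, by the stages that also held a site (3250 in MES and HB only, red). Right, share of regions by distance to the nearest protein-coding TSS, and share that are CpG-rich, for 5 sets of regions, with 95% Wilson intervals as lines: in promoter share (19.3%) and CpG-rich share (15.2%) the MES and HB regions lie between the regions of a single early stage and those that also held an HE site, whereas beyond 20 kb their 48.3% is near the 47.3% of MES-only regions.

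The sites in these regions were narrow. The median width of the MES site was 600 bp (quartiles 400 and 800 bp) and that of the HB site 800 bp (600 and 1000 bp), against 900 and 1100 bp in the other regions open in MES and HB. Sites of regions listed in MES only had a median width of 400 bp, and of those listed in HB only 600 bp. The HB site was the wider in 2245 regions (69.1%, 67.5 to 70.6%), of equal width in 432 and narrower in 573, whereas it was the wider in 81.5% (80.8 to 82.1%) of the other shared regions. The middles of the MES and HB sites lay a median of 59.0 bp apart, and at most 100 bp apart in 72.7% of regions, with a widest distance of 372 bp.

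The edge of the rule matters for some members. A later-stage window overlapped 153 regions by less than the 25% of a window that would have removed them. Of the 14636 regions kept out, 270 had a largest overlap of an early and a later window that was at least 25% but under 50%. Since the rule compares middles, a wide later site with a shifted middle can still cover a member. The deposited intervals overlapped 337 of the 3250 regions (10.4%), with HE intervals in 318, HP in 35 and MAC in 40, and 621 regions (19.1%) lay within 1 kb of one. These cases gathered at promoters: 183 of 628 promoter regions (29.1%, 25.7 to 32.8%) overlapped a later-stage interval, against 154 of 2622 other regions (5.87%, 5.04 to 6.84%). The median gap to the nearest interval of any later stage was 6255 bp.

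Where the regions lie was compared with those of the most similar patterns. A total of 628 regions (19.3%, 18.0 to 20.7%) were promoters, taken as within 2 kb of the TSS of a protein-coding gene, against 24.0% of all regions. The share was 16.2% in regions listed in MES only and 11.6% in those listed in HB only, and it was 40.0% in regions that also held an HE site. MES and HB regions exceeded MES-only regions by 3.17 percentage points (1.24 to 5.08) and HB-only regions by 7.70 points (6.02 to 9.40). The difference from the regions with a further HE site was -20.6 points (-23.2 to -18.0). Without the regions within 1 kb of a later-stage interval, the promoter share was 13.6%. A further 1053 regions (32.4%) lay 2 to 20 kb from a TSS and 1569 (48.3%) lay farther off, of which 501 were beyond 100 kb.

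The centres of 1439 regions (44.3%) fell in introns and 1190 (36.6%) outside annotated genes, against 45.8% and 34.6% of all regions. Another 318 fell in untranslated exons, 159 in coding exons and 144 in exons of non-coding transcripts. A total of 494 regions (15.2%, 14.0 to 16.5%) were CpG-rich, that is, with a GC fraction of at least 0.5 and an observed to expected CpG ratio of at least 0.6, against 18.2% of all regions. Among promoters the CpG-rich share was 57.3% (53.4 to 61.1%) against 65.9% over all promoter regions. Beyond 2 kb from a TSS it was 5.11% (4.33 to 6.02%) against 3.21%.

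The factor consensus sequences were counted in the central 500 bp of the 2622 MES and HB regions over 2 kb from a TSS and of all 52345 regions so placed. Of 31 consensus sequences, 11 (35.5%) were more frequent in the MES and HB regions by the limit set, a share in all regions of at most 0.8 times theirs, and 10 (32.3%) were less frequent, with a share of at most 0.8 times that of all regions. Those that stood higher were T-box, SP, OTX, CTCF, LHX, TCF/LEF, octamer, ZIC, FOXH1, KLF and YY1. Those that stood lower were SOX, RUNX, SMAD, CDX, CEBP, ESRRB, NRF1, AP1, MEF2 and PU.1. The call is a fold limit and not a test. When the letters of each consensus were put in reversed order, 5 of 30 stood higher and 8 lower by the same limit, leaving out SP, which reads the same reversed. A call alone therefore says little, and the reversed value is given beside the motifs described below, apart from SMAD and NRF1. The regions had a higher median GC content (52.2%) than all regions over 2 kb from a TSS (48.6%), and the part of base composition in these shares was not tested. Without CpG-rich regions on either side the number of motifs that stood higher was again 11.

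The T-box consensus AGGTGTNA, bound by Brachyury and Eomes, had the highest ratio. It occurred in 373 of 2622 MES and HB regions (14.2%, 12.9 to 15.6%) and in 6.44% of all regions, a ratio of 2.21 (2.01 to 2.42 from the members' interval), while its reversed letters gave 0.92. The SP ratio was close, at 2.17, and without CpG-rich regions on either side SP (2.26) stood above T-box (2.24). Regions listed in MES only held it in 11.1%, those listed in HB only in 14.1%, and those that also held an HE site in 7.96%. The MES and HB regions thus stood 6.27 points (4.10 to 8.28) above the regions shared with HE and did not differ from the HB-only regions beyond counting error (0.09 points, -1.67 to 1.88). Of the forms of the consensus, AGGTGTGA occurred in 6.64% against 2.54% of all regions, and AGGTGTTA in 2.67% against 1.11%. The form AGGTGTCA occurred in 4.20% against 2.11%, and AGGTGTAA in 1.49% against 0.87%. A total of 30 regions held at least 2 T-box matches (1.14% against 0.31% of all regions), among them the Sp5 region printed above.

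The TCF/LEF consensus CTTTGAT, through which Wnt signalling reaches DNA, occurred in 369 regions (14.1%, 12.8 to 15.5%) against 7.78% of all, a ratio of 1.81 with 0.69 for the reversed letters. Its share was 8.66% in MES-only regions, 14.6% in HB-only regions and 9.04% in regions shared with HE. The octamer ATGCAAAT, bound by OCT4 and other POU factors, occurred in 124 regions (4.73%, 3.98 to 5.61%) against 2.68%, a ratio of 1.76. Its reversed letters are rare, in 0.04% of the MES and HB regions and 0.20% of all, so that their ratio of 0.19 is a thin control. Here the order of the early stages was the other way round, with 5.75% of MES-only and 3.00% of HB-only regions, and the MES and HB regions stood above the HB-only regions by 1.73 points (0.76 to 2.76). Of 131 octamer matches in the MES and HB regions, 3 (2.29%) had the letters TTGT 1 base before them, against 18 of 1479 (1.22%) over all regions, the arrangement in which OCT4 and SOX2 bind side by side.

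The LHX consensus TAATTAG, shared by many homeodomain factors, occurred in 7.36% of the regions (6.42 to 8.42%) against 4.04% of all, and 0.98 was the ratio for its reversed letters. Its share was 4.31% in MES-only regions, 7.91% in HB-only regions and 3.98% in regions shared with HE. The ZIC consensus CCTGCTG occurred in 919 regions (35.0%, 33.2 to 36.9%) against 22.2%, a ratio of 1.58, with 1.33 for the reversed letters. ZIC letters were as frequent in MES-only regions (34.5%, difference 0.53 points, -2.11 to 3.18) within counting error. The same held for regions shared with HE (32.1%, difference 2.95 points, -0.39 to 6.21), while HB-only regions had 28.1%. For OTX (CTAATCC, 7.93% against 4.24%) the reversed letters gave 1.44, and for CTCF (CNAGGGGGC, 5.11% against 2.78%) they gave 2.25 at a share of 1.22%. MES-only regions, HB-only regions and regions shared with HE held OTX in 6.80%, 6.37% and 6.06%. In the same order they held CTCF in 5.79%, 3.55% and 5.79%. The reversed letters also stood higher for FOXH1 (TGTGGATT, 3.01% against 2.08%; reversed 1.64) and for KLF (GGGTGTGG, 6.52% against 4.91%; reversed 1.48). In MES-only regions, HB-only regions and regions shared with HE, FOXH1 was at 2.28%, 1.98% and 2.53%. KLF was there at 4.73%, 5.29% and 5.15%. The SP consensus GGGCGGG reads the same reversed, so it has no such control. It occurred in 18.3% of regions against 8.43% of all, and in 19.4% of the regions shared with HE. YY1 (AAGATGGCG) rested on 9 regions, and its interval included an equal share (ratio 1.32, 0.70 to 2.51; reversed 1.17).

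The GATA consensus AGATAA, that of factors active in mesoderm and blood, showed the widest spread in percentage points between MES-only and HB-only regions of the 31 consensus sequences. It occurred in 667 MES and HB regions (25.4%, 23.8 to 27.1%), near the 27.3% of all regions (ratio 0.93, reversed 0.74), but in 18.1% of MES-only regions and in 41.8% of HB-only regions. The MES and HB regions stood 7.31 points (5.03 to 9.58) above the first and differed from the second by -16.3 points (-18.7 to -14.0). The TEAD consensus ACATTCC was ordered likewise, with 9.59% in MES-only, 12.2% in MES and HB and 16.2% in HB-only regions, and a ratio to all regions of 1.22 with 0.82 for the reversed letters.

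The PU.1 consensus GAGGAAGT, that of a master regulator of myeloid cells, had the lowest ratio. It occurred in 86 regions (3.28%, 2.66 to 4.03%) against 9.47% of all, a ratio of 0.35 with 1.19 for the reversed letters. The AP1 consensus TGANTCA occurred in 14.7% against 27.2% (0.54, reversed 0.80), CEBP (TTGCNCAA) in 4.61% against 7.25% (0.64, reversed 0.89) and RUNX (TGTGGTT) in 9.80% against 13.4% (0.73, reversed 0.99). MEF2 (TATTTNTAG) occurred in 1.37% against 2.76% (0.50), but its reversed letters, at 0.72, were past the limit as well. The ETS (0.95, reversed 1.21) and GFI1 (0.94, reversed 0.78) consensus sequences, also of factors active in blood, did not pass it. SOX (ACAATGG) occurred in 5.91% against 7.77% (0.76, reversed 1.00). For CDX (CATAAAA, 0.69) and ESRRB (TCAAGGTCA, 0.59) the reversed letters were about as low, at 0.69 and 0.54. The SMAD and NRF1 shares rested on 11 and 3 regions, and their intervals included an equal share. All regions over 2 kb from a TSS include 38.2% listed in MAC only and 18.9% listed in HE only, so these ratios are measured against a background in which later stages weigh heavily. Against the MES-only regions, PU.1 (3.51%), AP1 (15.0%), CEBP (4.48%) and RUNX (8.62%) showed no difference beyond counting error, while MEF2 (2.28%) differed by -0.91 points (-1.69 to -0.17). The regions shared with HE held RUNX in 7.05% and AP1 in 12.0%, so that the MES and HB regions stood above them by 2.75 points (0.77 to 4.57) and 2.70 points (0.27 to 4.97).

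**Figure D2:**
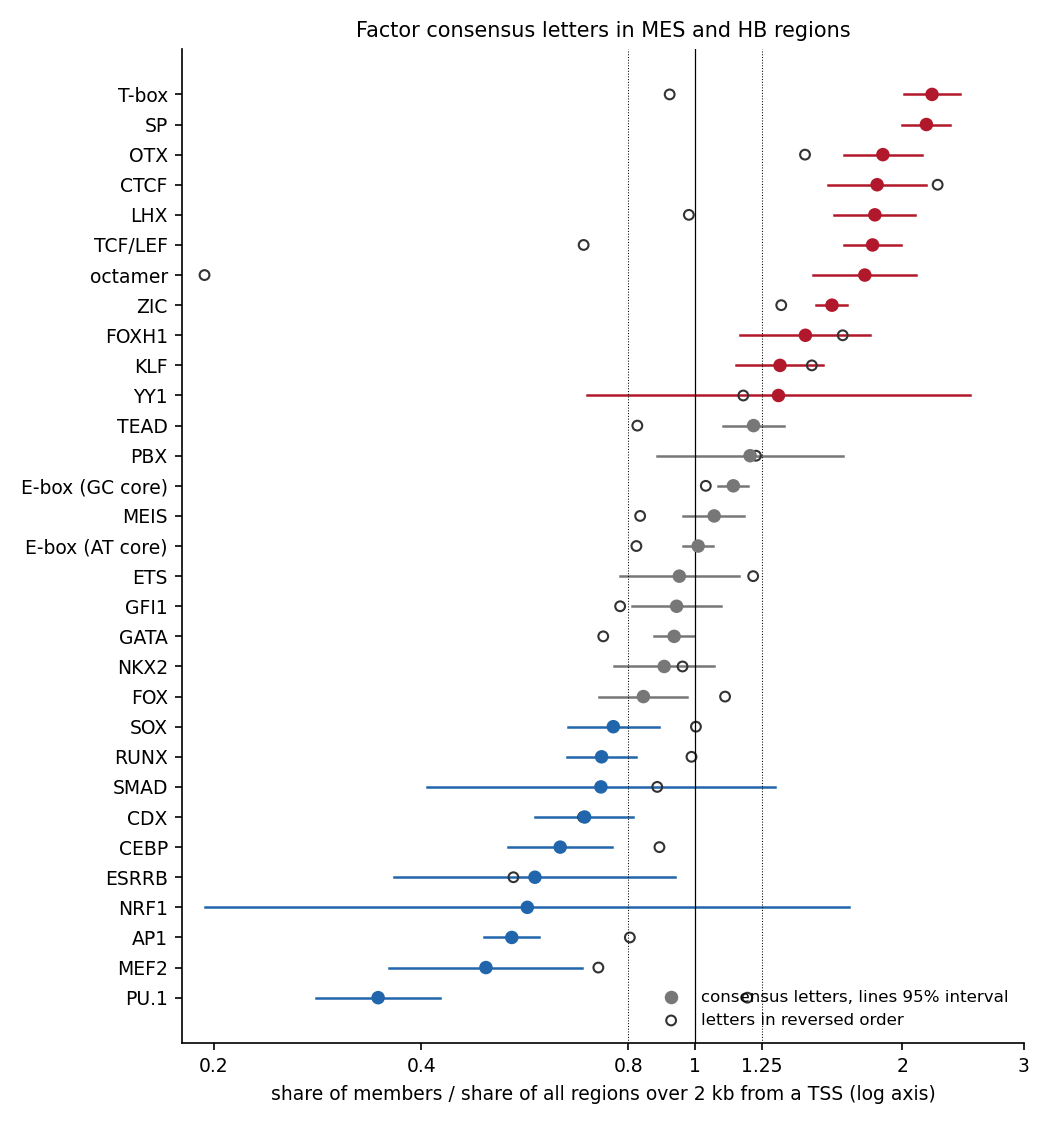
Share of MES and HB regions over 2 kb from a TSS that hold each factor consensus, divided by the share of all such regions (log axis), with a line for the 95% interval of the members' share and an open circle for the same letters in reversed order. Dotted lines mark the limits, red and blue points lie past them, and T-box (2.21) and PU.1 (0.35) are at the ends.

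Matches of T-box, TCF/LEF and ZIC letters were densest near the centre of the regions. T-box matches fell from 0.43 per kb within 50 bp of the centre to 0.19 per kb at 200 to 250 bp, while over all regions the density was 0.14 and 0.13 per kb at these distances. TCF/LEF matches went from 0.45 to 0.21 per kb against 0.18 and 0.15 over all regions. ZIC matches went from 1.30 to 0.51 per kb, and over all regions from 0.63 to 0.39. In the MES and HB regions, SP, OTX, CTCF, LHX and KLF matches were likewise densest within 50 bp of the centre. Between the same distances SP went from 0.82 to 0.26 per kb, OTX from 0.24 to 0.08 and CTCF from 0.20 to 0.05. LHX went from 0.27 to 0.15 and KLF from 0.18 to 0.12. Reversed letters have no values by distance. Octamer matches were densest at 50 to 100 bp, with 0.14 per kb, and at 200 to 250 bp the density was 0.05 per kb in both sets. FOXH1 matches had no such course, with 0.06 per kb within 50 bp of the centre and 0.07 per kb at 200 to 250 bp. When matches were counted in the central 200 bp alone, 11 motifs stood higher, but not the same 11, since YY1 was then at a ratio of 1.16.

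**Figure D3:**
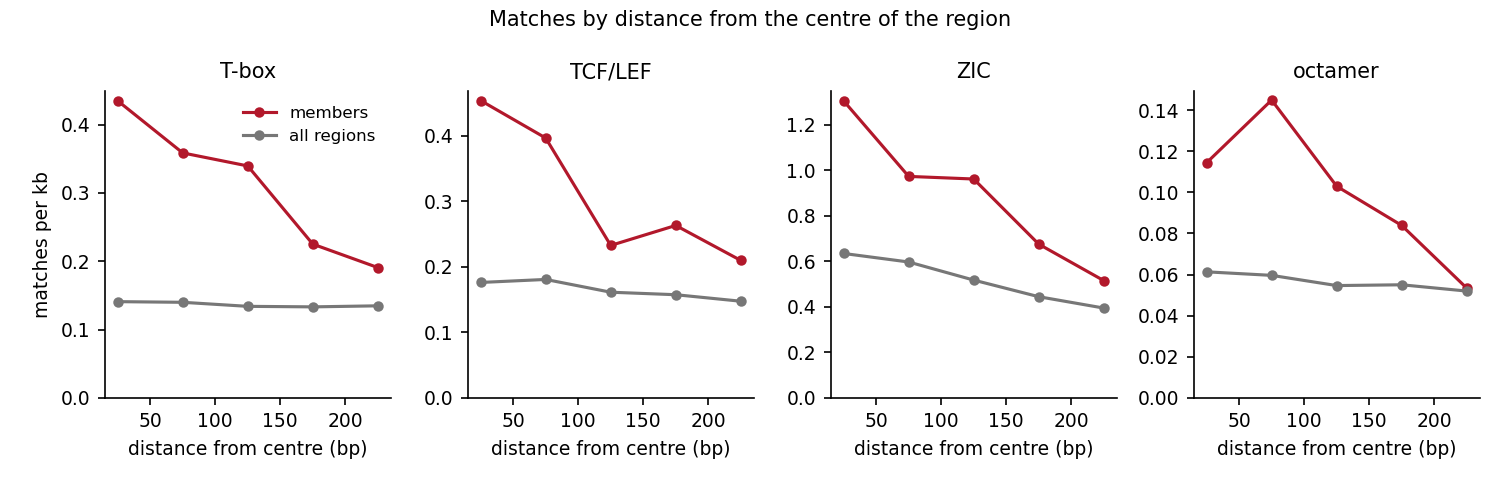
Matches per kb by distance from the centre of the region, in steps of 50 bp, for T-box, TCF/LEF, ZIC and octamer letters in the MES and HB regions (red) and in all regions over 2 kb from a TSS (grey). Near the centre the MES and HB regions held 0.43 T-box matches per kb against 0.14, and the curves approach each other at the edge.

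Regions were assigned to the protein-coding gene with the nearest TSS within 100 kb, which says nothing of the gene an element acts on. This reached 2749 of the 3250 regions, which are 4.61% of all 59681 regions so assigned. They fell to 2215 of 21000 genes (10.5%), of which 402 had at least 2. The genes with the most were Pax7 with 7 of its 13 regions, Zfp423 with 6 of 27, and Abr, Clybl, Mgat5b, Rgma, Sall4 and Slit1 with 5 each, followed by Adgrb1 and Cachd1 with 4, the first by name among 20 genes with that number. Pax7, a factor of the neural crest and of muscle precursors, had an MES and HB site at its own TSS and 1 region that was open in a later stage. The outermost of its 7 members lay 44.4 kb upstream and 79.0 kb downstream of this start.

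Genes of 15 lists, 446 in all, were examined, and 160 had at least 1 MES and HB region. Of their 239 such regions, 40 (16.7%) overlapped a later-stage interval, among them 1 each of Fgfr3, Bmp7, Smad1, Wnt11 and Lef1, and 67 (28.0%) lay within 1 kb of one or overlapped it. The lists differ in how many regions their genes have, so the share of a list's assigned regions that were open in MES and HB only is given, to be set beside the 4.61% of all genes. It was highest for primitive streak and mesoderm (34 of 201 regions, 16.9%, 12.4 to 22.7%), FGF and ERK feedback (35 of 207, 16.9%, 12.4 to 22.6%) and pluripotency and epiblast (29 of 179, 16.2%, 11.5 to 22.3%). Neural ectoderm (14.4%), Wnt (12.0%), Notch (11.6%), endoderm (9.57%), cardiac and lateral mesoderm (8.64%) and Nodal, BMP and TGF-beta (7.94%) came next, and their intervals lay above the value of all genes. The intervals treat regions of the same gene as independent, and 7 of the 18 neural ectoderm regions were those of Pax7. The streak list also stood high in neighbouring patterns, with 11.4% of its regions in MES, HB and HE only against 2.84% over all genes, and 13.4% in HB only against 5.21%. The HB-only share was above the 5.21% of all genes in 11 of the 15 lists, with the cardiac list highest at 19.1%. It was above the list's own share of MES and HB regions in 7, namely the cardiac, endoderm (10.4%), Hox (10.5%), Hippo (7.61%), adhesion (7.31%), endothelial (4.31%) and macrophage (4.21%) lists. Adhesion and EMT (6.85%, 4.19 to 11.0%) did not clear it. The endothelial and hemangioblast (2.59%), macrophage (3.16%), Hippo and TEAD (3.26%), Hox (3.49%) and blood (4.12%) lists lay below it, with intervals that included it.

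When the regions within 1 kb of a later-stage interval were left out, the share over all genes was 3.63%. That of the streak list was 13.4%, of the FGF list 12.6%, of the pluripotency list 11.7% and of the neural ectoderm list 12.0%, whereas the endothelial list was at 0.43% and the macrophage list at 0.53%, with 1 region each. The blood list kept all 7 of its regions (4.12%). Of the other lists whose intervals lay above all genes before, Wnt was then at 10.0%, Notch at 8.70% and the cardiac list at 6.17%. The endoderm list was at 6.09% and the Nodal list at 5.42%. Intervals were not computed for these stricter shares, so whether they stand above 3.63% beyond counting error is not given.

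**Figure D4:**
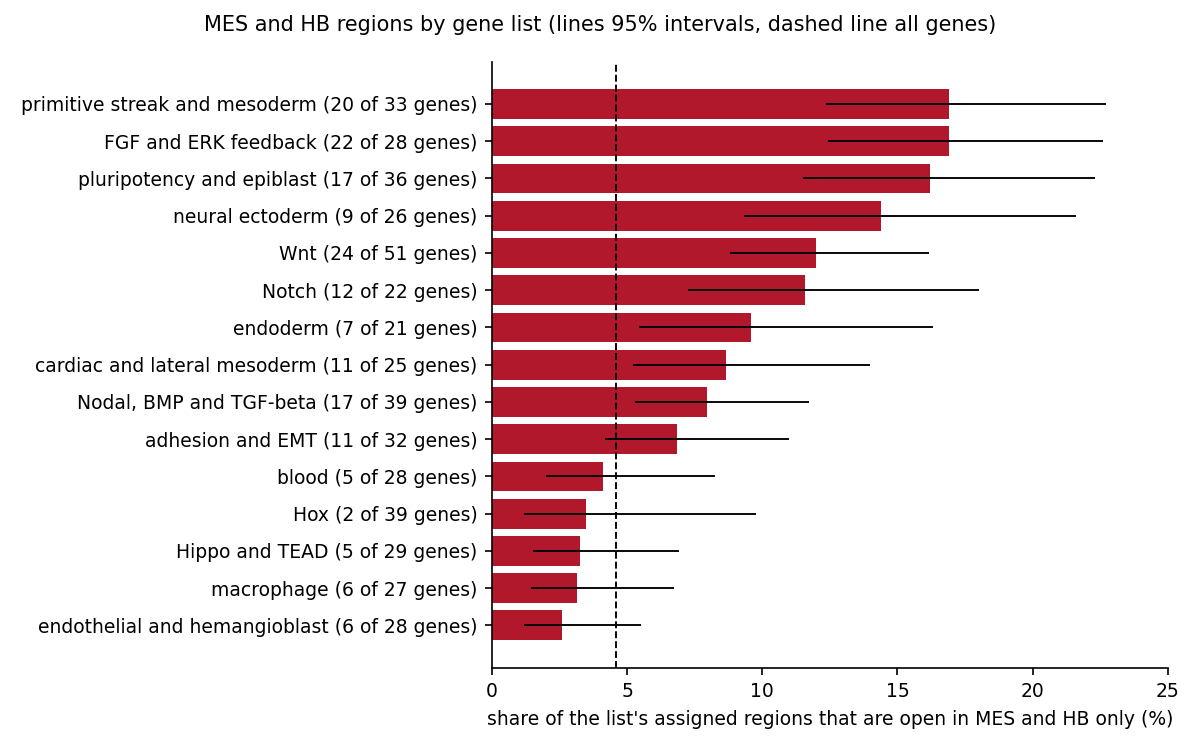
Share of the regions assigned to each list's genes that were open in MES and HB only, with lines for 95% Wilson intervals and, in parentheses, how many genes of the list had at least 1 such region. The dashed line is the 4.61% of all genes, and the streak and FGF lists stand highest at 16.9%.

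Primitive streak and mesoderm genes had a member in 20 of 33 cases. T, which encodes Brachyury, had 2 of its 7 regions in the set. The first, chr17:8429429-8430141, lies 4.64 kb upstream of the TSS outside annotated genes, with sites of 600 bp in MES and 700 bp in HB, and the nearest later-stage interval was 19905 bp away. The second, chr17:8433742-8434278, lies 0.41 kb upstream, with sites of 1000 bp in MES and 1200 bp in HB. It is CpG-rich, and its centre falls in a coding exon of the gene model LOC115486424. The nearest later-stage interval was 21109 bp away, so neither T region was near a later site.

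Eomes, the T-box gene of the early streak, had 4 of its 15 regions in the set. The widest, chr9:118487101-118487850 (printed in part above), had sites of 2000 bp in MES and 1700 bp in HB, with a later-stage interval 450 bp away. The region at the Eomes TSS, chr9:118478201-118478750, overlapped a later-stage interval, and the others lay 9.79 and 93.3 kb upstream, 8100 and 3900 bp from one. Foxc1, a regulator of paraxial and head mesoderm, had 4 of 9 regions, from 46.3 to 8.68 kb upstream. Mesp1, the gene of early cardiac mesoderm, had 1 of 7, at chr7:79789181-79789758, 4.12 kb downstream of its TSS, with sites of 900 bp in both stages. Evx1, Gsc, Hand1, Lhx1, Pax2 and Snai1 had 2 each, of 8, 9, 14, 9, 12 and 10 regions. Mixl1, with 2 regions, had none in the set, nor had the Cdx genes of the list.

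Among FGF genes, 22 of 28 had a member. Of the ligands, Fgf8 had 2 of 6, at chr19:45733290-45733830 (sites of 1000 bp in MES and 900 bp in HB) and chr19:45734981-45735639 (300 and 800 bp). Fgf5 had 2 of 3, and Fgf4, which the epiblast expresses, had its single region in the set, at its TSS. The receptor genes Fgfr1, Fgfr2, Fgfr3 and Fgfr4 each had at least 1, with Fgfr2 at 4 of 9 and Fgfr3 at 2 of 5. The ETS factor genes Etv4 and Etv5, which FGF signalling induces, had 1 of 9 and 2 of 14. The feedback inhibitors that restrain the pathway were also reached, with Il17rd at 4 of 8, Spry4 at 2 of 7, Dusp6 at 2 of 17 and Dusp4 at 2 of 25. The 4 Il17rd regions all lay in its introns, 27.5 to 43.0 kb downstream of the TSS, and those of Etv5 lay 12839 and 12128 bp from the nearest later-stage interval. The Dusp6 region at its TSS, with sites of 2300 and 2200 bp, overlapped one, as did 1 of the 4 Il17rd regions, chr14:27070386-27071162, and the Dusp4 region 1.37 kb from its TSS. Etv1, Fgf10, Fgf17, Spred1, Spred3 and Spry1 had none.

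In the Nodal, BMP and TGF-beta list 17 of 39 genes had a member, among them Nodal and its antagonists Lefty1 and Lefty2, but not the antagonist gene Cer1, with none of 6. Nodal had 2 of 6 regions in the set. The one at chr10:61405927-61406462, 11.8 kb upstream, had sites of 900 bp in MES and 1300 bp in HB, and the other, chr10:61423213-61423726, lies over a coding exon of Nodal with sites of 200 and 700 bp, 132 bp from a later-stage interval. Lefty1 had 2 of 3 regions and Lefty2 had 1 of 4, 9.26 kb upstream of its TSS. Tdgf1, the Nodal co-receptor, and Gdf3, a ligand of the same pathway, each had their single region in the set. Smad1, a signal carrier of BMP, had 3 of 22 and the ligand gene Bmp7 had 2 of 6. The receptor gene Acvr2b had 1 of 5, whereas the receptor genes Acvr1b, Acvr2a, Tgfbr1, Tgfbr2, Bmpr1a and Bmpr2 had none.

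The Wnt list had members at 24 of 51 genes. Among ligands, Wnt3, required for the streak to form, had 2 of 10, both in its own introns, at chr11:103808657-103809366 with sites of 1400 and 1200 bp and at chr11:103814767-103815306 with 600 and 1100 bp. The nearest later-stage intervals were 31244 and 25304 bp away. Wnt11 had 3 of 17, the secreted antagonist gene Sfrp1 had 2 of 10, and Wnt8a had 1 of 4. Among receptors, Fzd7 had 3 of 13 and Fzd2 had 2 of 6. The nuclear factor gene Lef1 had 3 of 12, and the targets Sp5, Axin2 and Dkk1, the last 2 of which encode inhibitors, had 2 of 5, 2 of 13 and 2 of 5. Ctnnb1, which encodes beta-catenin, had none of 11.

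Pluripotency and epiblast genes had a member in 17 of 36 cases. Sall4, a zinc finger factor of ES cells and epiblast, had 5 of 11, Otx2 had 3 of 9, Tbx3 had 3 of 24 and Lin28a had 2 of 7. The Sox2 region, chr3:34649495-34650085, lies at its TSS within an intron of Sox2ot, with sites of 500 bp in MES and 800 bp in HB. The Nanog region, chr6:122715680-122716197, lies 8.37 kb downstream of its TSS, with sites of 700 and 800 bp and a TCF/LEF match. Pou5f1, with 1 region, had none in the set, and neither did Esrrb, Klf2 and Klf4, with 8, 9 and 10 regions, while Klf5 had 1 of 6 and Prdm14 had 1 of 7.

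Among Notch genes, 12 of 22 had a member, with the target gene Hes1 at 3 of 15, the receptor gene Notch3 at 2 of 8 and the feedback regulator Nrarp at 2 of 7. In the neural ectoderm list, with 9 of 26, Dlx2, Gbx2 and Sox1 had 2 each beside the 7 of Pax7. In the cardiac list, with 11 of 25, Actc1, which encodes cardiac actin, had both of its regions in the set, each over 100 kb from a later-stage interval, and Gata4 and Hand1 had 2 each. Cxcr4, Foxa2 and Pdx1 of the endoderm list, and Cdh3, Fn1 and Itga6 of the adhesion list, also had 2. Dlc1 had 2 of 26 in the Hippo list, and Hoxd1 had 2 of 4, with Hoxb9 the other Hox gene that had a member.

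Genes of the endothelial list had 6 members among 232 regions, those of the blood list 7 among 170 and those of the macrophage list 6 among 190, shares whose intervals include that of all genes. Kdr, which encodes the Flk1 that separates HB from MES cells, had 24 assigned regions and none of them in the set. Fli1 had none of 16, Lmo2 none of 12 and Tal1 none of 7. Etv2, a factor of the hemangioblast, had 1 of 4, which overlapped a later-stage interval. Runx1, the gene needed for blood to arise from endothelium, had 1 of 31, 2.14 kb upstream of a TSS, at chr16:92827932-92828496, with sites of 400 bp in MES and 800 bp in HB. Kit had 2 of 7 and Zfpm1 had 2 of 18. Each of the 6 macrophage genes with a member had 1, and those of Adgre1, Cebpb, Fcgr1 and Pparg overlapped a later-stage interval.

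**Figure D5:**
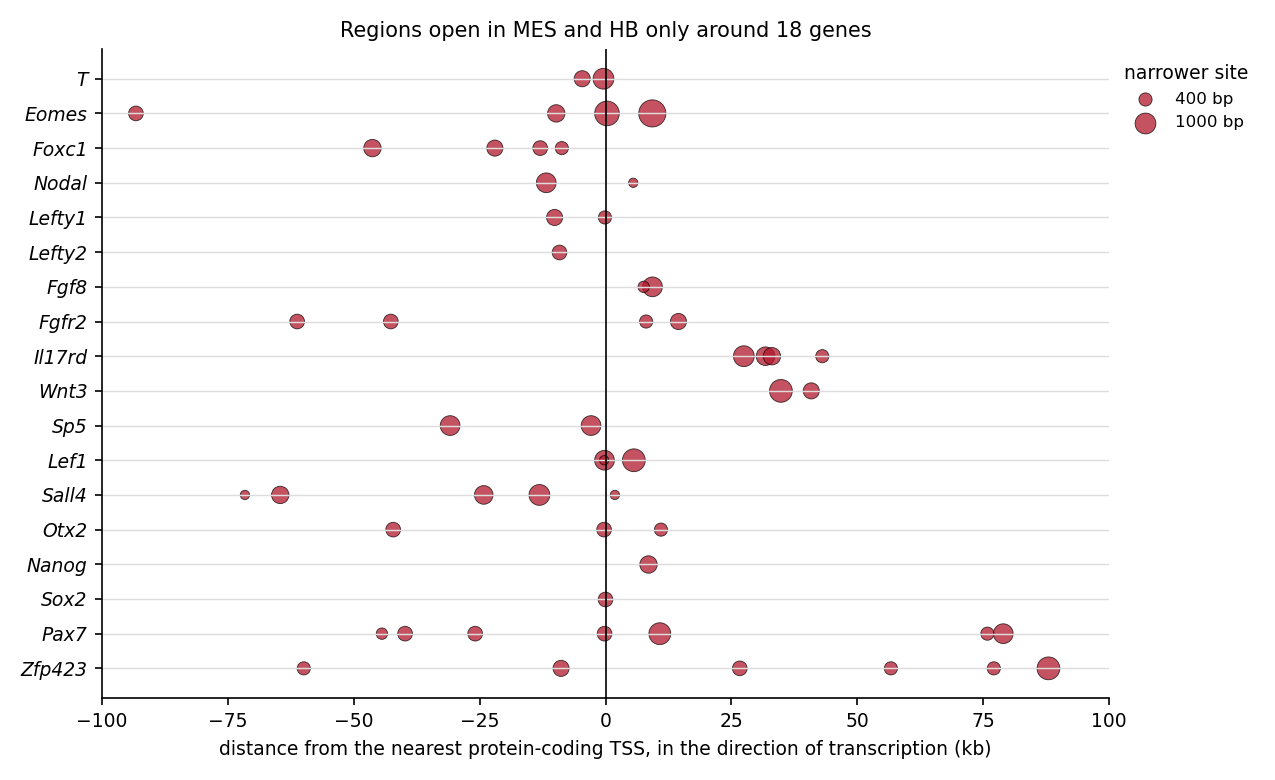
Position of each MES and HB region assigned to 18 genes, as distance from the nearest protein-coding TSS in the direction of transcription (kb), with the area of a point proportional to the width of the narrower of its MES and HB sites (bp). Pax7 has 7 points spread over both sides, whereas the 4 of Il17rd all lie downstream of the TSS.

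The promoters of nearby genes mostly had another pattern than the regions. Of 1721 genes nearest to an MES and HB region over 2 kb away, 50 (2.91%, 2.21 to 3.81%) had a site within 1 kb of a TSS in MES and HB only, against 1.40% of all genes. Sites in all 5 stages were found at 737 (42.8%, 40.5 to 45.2%), against 42.3% of all genes, and no site in any stage at 325 (18.9%, 17.1 to 20.8%) against 33.9%. Promoters with sites in MES, HB and HE but not in HP or MAC were found at 141 (8.19%, 6.99 to 9.58%) against 3.94%. Eomes and Mesp1 were among these, while T and Otx2 had the MES and HB pattern at the promoter as well.

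The 10 widest regions over 2 kb from a TSS, by the narrower of the pair of sites, included those nearest to Aloxe3, Krt18, Dagla, Car4, Eomes, Pif1, Dnttip2, Mn1 and Stard13. Of the 10, 6 overlapped a later-stage interval, and the Dagla, Krt18 and Eomes regions lay 60, 114 and 450 bp from one. The Aloxe3 region, chr11:69123307-69123816, has sites of 2100 bp in both stages, and its centre falls in an untranslated exon of Hes7, a gene of the somite clock. The Krt18 region, chr15:102017124-102017660, has sites of 2000 and 2100 bp and lies 10.8 kb upstream. Krt18 encodes a keratin of simple epithelia. The Mn1 region, chr5:111409100-111409607, was the only one of the 10 over 1 kb from a later-stage interval, with a gap of 7018 bp.

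Distances between members are given without a comparison, since they were not computed for other patterns, and both regions of a close pair are counted. Another MES and HB region was found within 10 kb of 379 regions (11.7%, 10.6 to 12.8%) and within 50 kb of 1185 (36.5%). The median distance to the nearest other member was 95.6 kb. For 291 regions (8.95%) the closest region of any kind was another MES and HB region, a pattern that makes up 4.72% of all regions, and for 739 (22.7%) it was one listed in HE only, which make up 17.1%. Regions listed in HB only were the closest for 7.97% (5.65% of all regions), and those in MES only for 6.03% (4.10%). Those in MES, HB and HE only were the closest for 3.78% (2.68%). Lower than over all regions were MAC only (20.6%, 31.0% of all) and all 5 stages (9.26%, 13.2%).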

How the data were processed

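DNaseI-seq was done on each sorted population. Per the authors, CutAdapt removed adapters, Bowtie placed reads on mm10 (GRCm38), and only reads with 1 position were used after Picard had taken out duplicates. Sites are DFilter calls, made with a bin size of 100 bp. The labels also name HOMER. Versions are not given in the sources used here. The deposited files hold site positions only, 1 list per stage, with no counts, scores or depth, and each list was taken as 1 sample. The regions, gene lists and consensus sequences were chosen with earlier results of these data known.

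Sites were chained into regions, placed against RefSeq GRCm38.p6 (curated transcript starts of 21000 protein-coding genes, nearest TSS within 100 kb) and read for sequence in the central 500 bp, with Python 3.11.15, numpy 2.4.6 and pandas 2.3.3. The 4 mitochondrial regions were left out of all shares. Merging, pattern calls and consensus counts were tested on simulated data. Shares have 95% Wilson intervals, differences Newcombe intervals, and no test was run between stages. Genes were named by rule: the 10 with most members, up to 8 with at least 2 members in a list, and 13 genes of streak, epiblast and hemangioblast. The few others were named after their values were seen, and some genes that the rule names are not reported here. Regions were named as the 10 widest and those of the 13 genes. Alternatives varied the overlap, the merging, the sites used, the promoter, CpG and gene limits and the motif count.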

Additional observations from a re-analysis of the deposited data

How the results depend on the processing

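No paired analysis was possible because each stage has 1 list and no replicate. The number of regions ran from 2358 to 3397 over the other alternatives, but was 1196 when only sites at least as wide as the median of their list were used, and 91 of the listed genes then had a region instead of 160. The promoter share, 19.3% as reported, was 17.8% with windows chained at 1 bp, 21.3% at 250 bp, 15.0% with deposited intervals merged, 34.4% with the sites of at least median width, 23.7% with the widest 17734 sites of each list, 13.6% without regions within 1 kb of a later interval, 16.4% with promoters within 1 kb and 28.6% with the starts of all annotated transcripts. The CpG-rich share, 15.2% as reported, was 13.8%, 17.0%, 11.8%, 30.2%, 19.8% and 10.4% under the first 6 of these, and 13.1% with limits of 0.55 and 0.65. Under each of these 6, both shares stayed below those of all regions. With consensus letters reversed 6 motifs stood higher instead of 11, and 1 of the 6 is SP, which reads the same reversed. Of 168 motif ratios under alternatives, 158 kept their side of the limit. The ratio turned for SMAD (1.28) and YY1 (0.94) with the widest sites of each list and for NRF1 (1.62) with the sites of at least median width. A call was lost for SOX (0.84) and CDX (0.80, just above the limit) with the widest sites, for KLF (1.23) with the sites of at least median width, for SOX (0.83), NRF1 (0.93) and YY1 (1.16) in the central 200 bp, and for NRF1 (0.91) without CpG-rich regions. The cause of these changes was not tested. The number of motifs that stood lower ran from 7 to 12. Depth is unknown, so a site missing from a list cannot be told from one under the caller's limit.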

Other observations

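Among words of 7 letters found in at least 3% of the MES and HB regions over 2 kb from a TSS, those with the highest ratio were rich in CpG. The first was CCCGCCG, in 4.20% of the MES and HB regions and 1.59% of all regions, a ratio of 2.64. When CpG-rich regions were left out on both sides, the first was GCCCCGC (9.85% against 4.03%, ratio 2.44). Each of the first 10 words of both lists held a CpG.

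Within the 2622 regions, the 373 with a T-box match held a GATA match in 31.1% (26.6 to 36.0%) and the 2249 without one in 24.5% (22.8 to 26.3%), a difference of 6.60 points (1.76 to 11.8). FOXH1 letters were found in 4.83% and 2.71% (difference 2.11 points, 0.21 to 4.85), and SP letters in 10.7% and 19.5%. For TCF/LEF the shares were 13.7% and 14.1%, a difference of -0.47 points (-3.93 to 3.63). These are 12 comparisons made after the ratios above were seen, and they carry no test.

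By chromosome, the MES and HB regions made up 5.57% of the regions on chromosome 5 and 5.51% on chromosome 17, and 3.04% on chromosome X, where 34 of 1120 regions were members. Chromosome Y held 13 regions in all.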
